A study of Mus musculus with 23 samples.

Results

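Loss of Wnt3 was followed in mouse epiblast-like cells that were left without an added cytokine. Of the 23 arrays of the series, 6 were chosen by title: Wnt3+/+ cells (WT, 3 arrays) and Wnt3-/- cells (KO, 3 arrays) after 12, 24 and 36 h of aggregate culture, paired by time. Both genotypes are male C57BL/6 embryonic stem cells that carry BV transgenes, and both were kept as stem cells with the inhibitors PD0325901 and CHIR99021 and leukemia inhibitory factor (LIF). They were turned into epiblast-like cells on fibronectin with Activin A, bFGF and serum replacement, and were then grown as floating aggregates in serum replacement with LIF and nothing else added. Cells of each genotype at 0 h (2 arrays) are also read below. So are aggregates of each genotype given BMP4 for 12, 24 and 36 h (6 arrays). The fold rule for the genes described as apart at 36 h did not use these arrays. They did take part, with all 23 arrays, in the normalization, the choice of probe sets and the filter. WT given WNT3A (3 arrays) and 6 KO arrays of conflicting cytokine labels enter the models.

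WNT3 is a secreted ligand of the canonical WNT pathway. It binds Frizzled receptors with LRP coreceptors and stabilises beta-catenin, which joins TCF/LEF factors on DNA and switches on targets such as Axin2 and Sp5. In the mouse embryo Wnt3 acts in the posterior epiblast and the visceral endoderm next to it, and embryos without it form no primitive streak. Epiblast-like cells model the epiblast before the streak appears.

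The design sets limits on what the differences can show. There is 1 array per genotype, condition and time, so no time point has a replicate. The 3 times stand in for replicates, within 1 series of cultures. The p-values rest on the residual spread of 21 arrays in 7 groups at these times, not on that of the 6 compared arrays alone. The labels describe a single line of each genotype, so genotype and line cannot be told apart. In whole aggregates, fewer cells of a type and less RNA per cell cannot be told apart either. Values below are the deposited intensities. Differences are KO minus WT on the log2(intensity + 16) scale after quantile normalization, which understates the change of dim genes, and 13255 genes were tested.

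Wnt3 itself was dim in both genotypes until late. Its probe set read 11.5, 17.0 and 83.3 in WT at 12, 24 and 36 h and 16.9, 11.8 and 11.2 in KO, after 10.4 in WT and 16.2 in KO at 0 h. Only the WT array at 36 h stood apart, with a difference of -1.82. Over the other conditions the 13 KO arrays ran from 11.2 to 27.9, and WT with BMP4 reached 19.03, 100.4 and 146. The sources used here do not say whether this probe set lies in the deleted part of the gene, so a low reading does not by itself check the label. The slope of the Wnt3 difference was -1.05 ± 0.31 log2 per 12 h and missed the threshold (limma adjusted p = 0.282).

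Markers of epiblast-like cells were read in both genotypes, and Pou5f1 and Dnmt3b were bright in each. Pou5f1, the pluripotency factor OCT4, read 8599, 9027 and 8659 in WT and 8964, 8719 and 7643 in KO. Dnmt3b, a de novo DNA methyltransferase of the primed epiblast, read 8135 to 12850 in WT and 9675 to 12330 in KO. The lowest KO values of Sox2, Otx2, Fgf5 and Pou3f1 were 2557, 657.1, 1144 and 3641. In WT, Otx2 fell over the culture, and Otx2 and Sox2 were lower than in KO at 36 h. Trophoblast markers (13 on the array) summed to 754.3 to 2360 in WT and 603.7 to 815.8 in KO, with Eomes the brightest and 6 of the 13 under 40 on all 6 arrays. The 20 markers of primitive and visceral endoderm summed to 4443 to 5811 in WT and 3753 to 5199 in KO, with 8 of them under 40 on all 6 arrays. The 14 fibroblast markers summed to 8342 to 9295 in WT and 8828 to 10870 in KO, with 5 under 40 throughout, and most of that signal came from Fap (6339 to 7434 in WT, 6700 to 8481 in KO). The 6 markers of cells in a 2-cell-like state summed to 1205 to 1571 in WT and 1302 to 1449 in KO, with 4 under 40 throughout. The part of other cells in the results was not tested.

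Some arrays stood apart from their labels or in quality. After the values were seen, 9 genes were picked that differed by at least 0.5 log2 in the same direction at 0 h and at all 3 times without cytokine (Cyb561, Depdc1b, Erdr1, Frmd4a, Gm1673, Kif18b, Mettl2, Nxf3 and Wnt5b). Of 15 other arrays, the 9 of KO lay on the KO side at 7 to 9 of these genes. The 3 WT arrays with WNT3A did so at 0, and WT with BMP4 at 24 and 36 h did so at 3. The array titled WT with BMP4 at 12 h lay on the KO side at 8 of the 9. Its Frmd4a level was 6.38 on the log2 scale, against 4.13 to 4.73 on the other WT arrays and 6.36 to 7.82 on the KO arrays. Its Sp5 intensity was 1024, against 31.1 in KO with BMP4 at 12 h. That value lay within the Sp5 range of the 6 KO arrays of conflicting cytokine labels, which is given further below. Which culture the array holds was not tested. Besides the normalization, probe set choice and filter, it enters only the residual spread of the models and the BMP4 pair at 12 h. The counts of calls are given with and without it, and the BMP4 pair at 12 h has no value without it. The 6 KO arrays given WNT3A, BMP4 or both have cytokine labels that conflict between fields. They enter the models only through the residual spread, and their levels of Wnt3, Cdkn1a, Sp5 and the 9 genes are given as descriptions. The ratio of 3' to 5' Gapdh signal, a sign of RNA integrity, was 2.68 in KO at 24 h and 2.30 in WT at 36 h, 4.03 in WT with WNT3A at 24 h, and 1.09 to 1.71 on the others. The same ratio for beta-actin was high throughout, from 5.58 to 8.75, and did not set the same arrays apart. It was 8.52 in KO at 24 h, 7.78 in WT at 36 h and 7.21 in WT with WNT3A at 24 h. The part of RNA quality in the results was not tested. Medians of the 6 arrays lay between 36.8 and 39.4.

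More genes differed between the genotypes as the culture went on. At 0 h, 14 genes were at least 2-fold higher and 13 at least 2-fold lower in KO. The counts were 15 higher and 85 lower at 12 h, 31 and 93 at 24 h, and 180 and 233 at 36 h. At 36 h these were 1.36% and 1.76% of all genes tested. With a single pair of arrays per time these counts are descriptions, without a test.

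**Figure D1:**
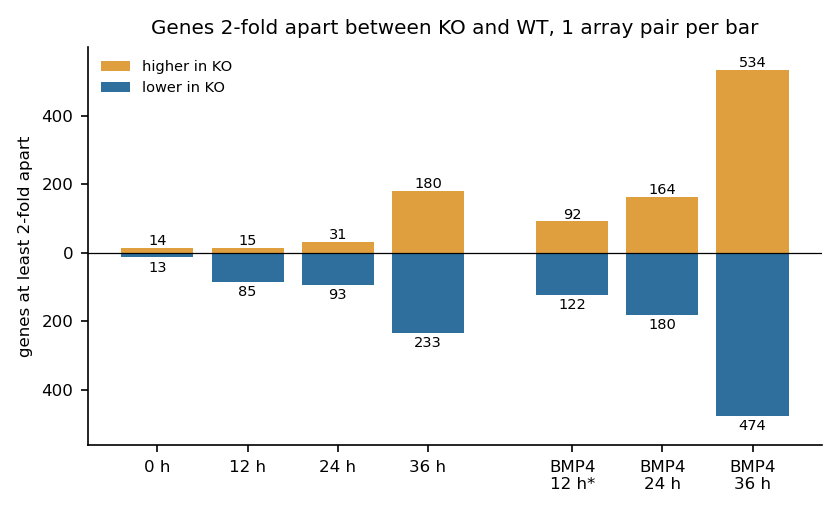
Number of genes at least 2-fold higher (upward bars) or lower (downward bars) in KO than in WT, 1 pair of arrays per bar, for cells at 0 h, without cytokine and with BMP4. The count without cytokine is largest at 36 h (180 higher, 233 lower), and the asterisk marks the pair that holds the array titled WT with BMP4 at 12 h, whose label is in doubt.

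The mean difference over the 3 times passed at 13 genes (limma, Benjamini-Hochberg adjusted p under 0.05 over all genes tested), 4 higher in KO, 0.0302% of all genes, and 9 lower, 0.0679%. All 13 kept their direction at 12, 24 and 36 h, but a called mean does not make a difference steady, and 1 of them, Irs4, also had a called slope. A separate description, a difference of at least 1 log2 unit at every time, was met by 3 genes, 0.0226% of those tested: Frmd4a and Kif18b, higher in KO, and Cdkn1a, lower. Cdkn1a, whose smallest difference was -1.08, no longer met it with values as deposited, with median centring, with probe sets averaged per gene, with an offset of 64 or with a limit of 1.5 log2 units, and all 3 met it with an offset of 1. The mean difference of Kif18b missed the threshold (1.22 ± 0.25, limma adjusted p = 0.0769).

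Cdkn1a encodes p21, an inhibitor of cyclin-dependent kinases and a classic p53 target. Its intensity was 803.4, 699.4 and 1448 in WT at 12, 24 and 36 h, and 340.1, 347.3 and 294.1 in KO. Every KO value lay below every WT value, and the mean difference was -1.48 ± 0.23 (SE, n = 3 times, limma adjusted p = 0.0253). At 0 h the lines were alike, at 548.7 in WT and 522.8 in KO. On the BMP4 arrays, which the 2-fold rule did not use, the difference was -1.74, -1.98 and -1.49 at 12, 24 and 36 h. The first of these comes from the pair with the doubtful label. The 6 KO arrays whose labels conflict, which hold WNT3A by at least 1 label field, read 1067 to 1898, and the 3 WT arrays given WNT3A read 1176 to 1808.

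Other p53 targets did not follow Cdkn1a as a group. Of 25 genes of the p53 list, Cdkn1a was the only one whose mean difference passed, and the list median was -0.12, 0.01 and -0.15 at the 3 times, against 0.02, 0.01 and -0.03 over all genes. Ddit4, a stress-induced inhibitor of mTORC1, was 2-fold lower at 12 and 36 h, with differences of -1.43, -0.73 and -1.16, but its mean missed the threshold (-1.11 ± 0.46, limma adjusted p = 0.338). Phlda3, a p53-induced repressor of AKT, had differences of -0.27, -0.57 and -0.99 (mean -0.61 ± 0.13, limma adjusted p = 0.0706). Mdm2 had -0.19, 0.06 and -0.54, and Ccng1 had -0.08, -0.43 and 0.00.

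Frmd4a, which encodes a scaffold protein of epithelial polarity, had the largest mean difference of the 13 genes. It read 5.32, 1.58 and 4.89 in WT, near the floor of the array, and 81.0, 156.5 and 202.3 in KO. The difference was already 1.89 at 0 h (10.3 in WT, 79.3 in KO), and its mean over the 3 times was 2.97 ± 0.42 (limma adjusted p = 0.011). With WT so close to the floor the size depends on the offset, at 4.95 with an offset of 1 and 1.59 with one of 64, and is not a measured fold. Kif18b, a kinesin that trims microtubule ends in mitosis, read 124.5, 122.8 and 148.1 in WT and 330.8, 319.6 and 342.5 in KO, and 110.7 against 347.3 at 0 h. For both genes the genotypes were thus apart before the aggregates were made, unlike Cdkn1a. Kif18b lies on chromosome 11, as does Wnt3, 17 tested genes away from it. Of the 9 genes apart at 0 h and at all 3 times, 3 are on that chromosome (Cyb561, Kif18b and Mettl2), which holds 8.28% of all tested genes.

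Irs4, an adaptor of the insulin and IGF receptors, was the only gene called both for its mean and for its slope. It read 171.3, 87.4 and 38.9 in WT and 256, 321.8 and 393.4 in KO. The mean difference was 1.68 ± 0.28 (limma adjusted p = 0.0345), after 0.18 at 0 h. The anonymous gene AI662270 was higher in KO, at 385.3, 354.6 and 319.6 against 182.3, 146 and 172.4 (mean 1.01 ± 0.14, limma adjusted p = 0.01). The ubiquitin ligase gene G2e3 was higher by 0.68 ± 0.12 (limma adjusted p = 0.0482).

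Of the 9 genes with a lower mean in KO, Erdr1 and Gm1673 were already lower at 0 h. Erdr1 read 7132, 7538 and 4771 in WT against 3692, 2336 and 1992 in KO, with no overlap, and 6841 against 4390 at 0 h (mean -1.31 ± 0.17, limma adjusted p = 0.01). Another Erdr1 probe set, which read at most 153.3, had 0.07 at 36 h. Gm1673 had -0.91 at 0 h and a mean of -1.25 ± 0.21 (limma adjusted p = 0.0355). Cenpx, which encodes a histone-fold protein of the centromere and of the Fanconi anaemia pathway, had -0.05 at 0 h and a mean of -0.72 ± 0.11 (limma adjusted p = 0.0203). It read 855.1, 837.5 and 891.4 in WT and 541.2, 530.1 and 487.8 in KO, again without overlap. The other lower genes had smaller differences, from -0.69 at Stoml3 to -0.50 at Ncoa5, and among them were Scap, the escort of the SREBP lipid regulators (-0.61), Nomo1 (-0.57) and the phospholipid flippase gene Atp8b2 (-0.51).

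These mean calls rested on few arrays. Without WT at 24 h, KO at 24 h or KO at 36 h no gene was called by limma (1261, 1323 and 1450 genes at an unadjusted p under 0.05, against 1627 with all arrays). Without WT at 36 h 3 were called and without WT at 12 h 67. Without the array titled WT with BMP4 at 12 h 15 were called, and G2e3 and Scap lost their calls (limma adjusted p = 0.0544 and 0.0536, with highest values over all alternatives of 0.792 for both). Without the 6 KO arrays of conflicting labels, which leaves fewer arrays for the residual spread, none was called (1302 at an unadjusted p under 0.05), and without those and the array titled WT with BMP4 at 12 h 3 were. Without the 3 arrays of Gapdh ratio over 2, 1 was called.

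**Figure D2:**
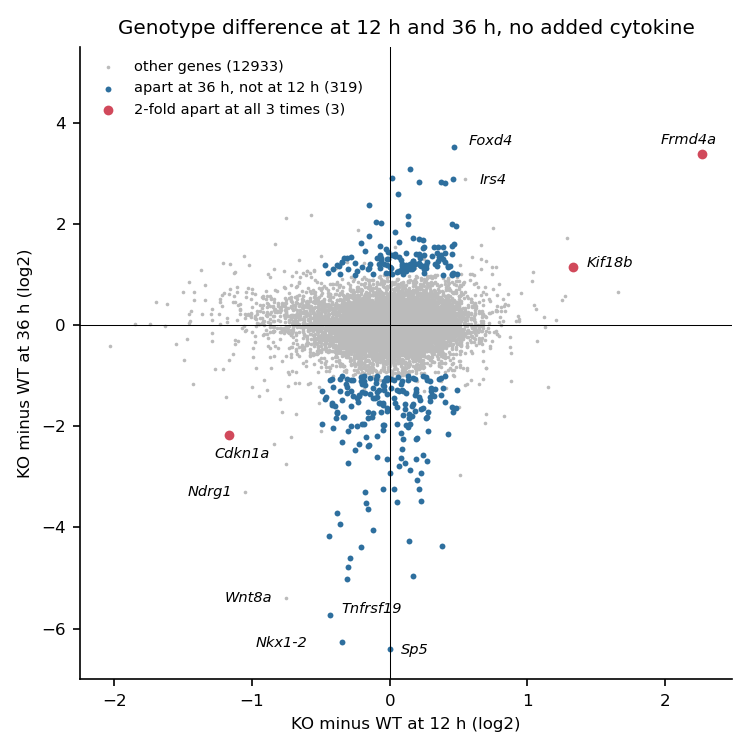
Difference between KO and WT without cytokine at 36 h (vertical axis) against that at 12 h (horizontal axis), both in log2, 1 point per gene tested. The 3 genes at least 2-fold apart at all times sit far from 0 on both axes, while the 319 genes apart at 36 h and not at 12 h form a vertical band that reaches from 3.52 at Foxd4 to -6.41 at Sp5.

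Differences that arose during the culture were described as at least 1 log2 unit at 36 h, under 0.5 in size at 12 h, and not over 0.5 the opposite way at 24 h. This held for 192 genes lower in KO, 1.45% of all genes tested, and for 127 higher, 0.958%. The smallest difference inside the limit was 1.001 in size and the largest outside it 0.998, with 53 genes between 1 and 1.1 inside and 86 between 0.9 and 1 outside. Of the 413 genes 2-fold apart at 36 h, 75 were left out because they were already 0.5 apart at 12 h and 19 of the others because they were opposite at 24 h.

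The rule requires a difference in the change from 12 to 36 h but not which genotype moved. Of the 192, 125 moved by at least 1 log2 unit between 12 and 36 h in WT and by less in KO, 18 moved in KO alone, 4 moved apart, 6 moved the same way and 39 moved that far in neither. The median change from 12 to 36 h was 1.47 in WT and -0.13 in KO, as a description of the arrays that chose these genes, and the WT value rests on the 36 h array with a Gapdh ratio of 2.30. At 24 h, 24 of the 192 were at least 1 unit apart, 57 between 0.5 and 1, and 111 less. By 36 h, 53 were over 4-fold and 12 over 16-fold lower.

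The slope of the KO minus WT difference over time was tested in a separate model. It passed at 25 genes (limma, Benjamini-Hochberg adjusted p under 0.05), 22 falling, 0.166% of all genes, and 3 rising, 0.0226%. Of these 25, 20 were among the 192 genes lower at 36 h and 2 among the 127 higher. The slope uses the same arrays as the description at 36 h, so the overlap is no independent support.

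Direct targets of canonical WNT signalling led the falling genes. Sp5, a zinc finger repressor that beta-catenin induces directly, read 27.5, 181 and 3541 in WT and 27.3, 25.99 and 24.8 in KO. The WT value left the KO range only from 24 h on, and by 36 h the gap was 85.3-fold on the offset scale. The slope was -3.21 ± 0.37 log2 per 12 h (limma adjusted p = 0.00354). Nkx1-2, a homeobox gene of the posterior axis, read 48.2, 648.1 and 3769 in WT and 34.5, 54.2 and 32.7 in KO. The slope was -2.96 ± 0.24 (limma adjusted p = 2.27e-04). Of the other probe sets for Nkx1-2, one had -3.00 at 36 h and a dimmer one 0.27. Tnfrsf19, the WNT-induced receptor TROY, read 47.8, 487.8 and 1978 in WT and 31.6, 22.6 and 19.3 in KO (slope -2.65 ± 0.23, limma adjusted p = 2.58e-04). A second probe set of Tnfrsf19 had -1.54 at 36 h, and another, which read at most 20.4, had 0.34. None of the 3 genes differed by more than 0.70 at 0 h.

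**Figure D3:**
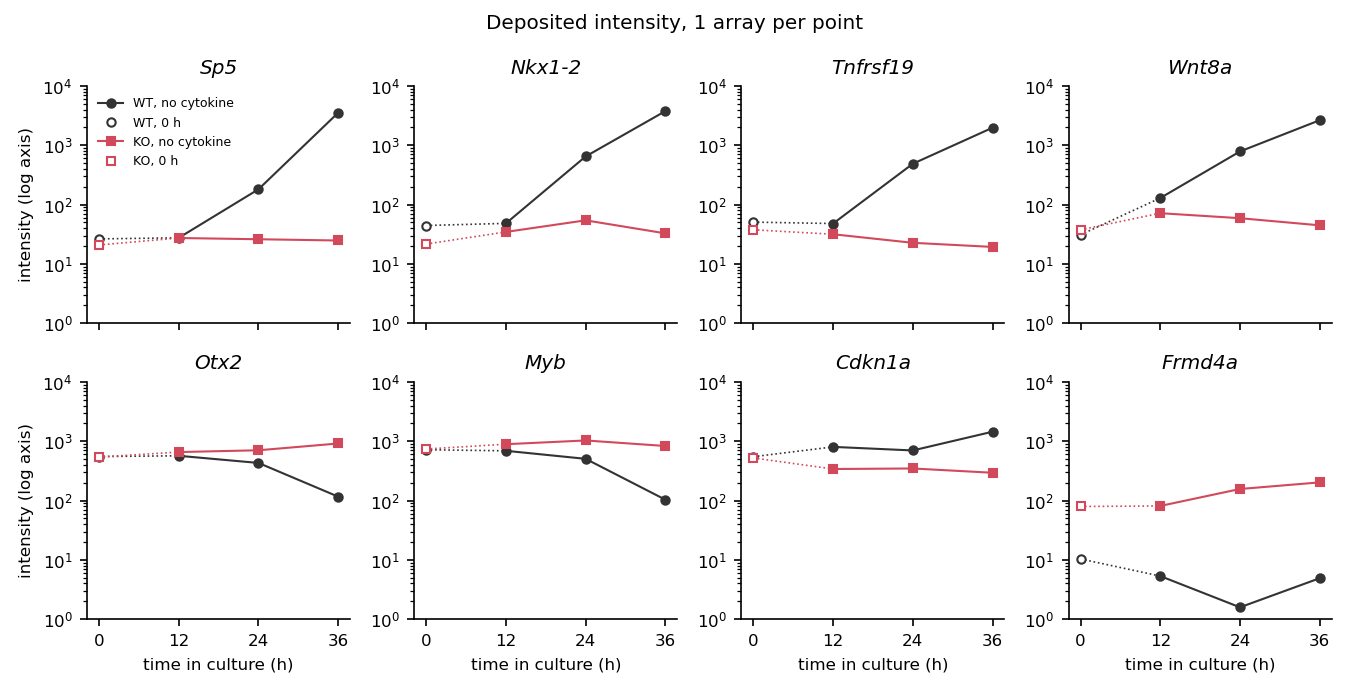
Deposited intensity on a log axis against hours in culture for 8 genes, 1 array per point, with WT in circles, KO in squares and the 0 h cells as open symbols. At Sp5, Nkx1-2, Tnfrsf19 and Wnt8a the WT line climbs steeply after 12 h while the KO line stays low, and at Wnt8a the lines are already apart at 12 h. At Otx2 and Myb the WT line falls away below the KO line, at Cdkn1a the lines part after 0 h, and at Frmd4a they are apart from 0 h on.

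The promoters of 3 falling genes that carry the letters of a TCF/LEF site are shown. The genes lower at 36 h were ranked by their difference, and the first 3 with a match were taken. A match was thus a condition for being shown. Stronger genes without a match or a listed promoter, such as Nkx1-2 and Olig2, were passed over. Each sequence is the 250 bases before the start site, from RefSeq on GRCm38.p6, 5' to 3' on the gene's strand, with the site in capitals. The Sp5 promoter (chr2:70474673-70474922, plus strand) holds CTTTGAT 104 bases before the start. The Tnfrsf19 promoter, 1 of 2 listed for the gene (chr14:61037988-61038237, minus strand), holds its reverse complement ATCAAAG 202 bases before the start. The Epha2 promoter (chr4:141300971-141301220, plus strand) holds CTTTGAA 209 bases before the start.
Sp5: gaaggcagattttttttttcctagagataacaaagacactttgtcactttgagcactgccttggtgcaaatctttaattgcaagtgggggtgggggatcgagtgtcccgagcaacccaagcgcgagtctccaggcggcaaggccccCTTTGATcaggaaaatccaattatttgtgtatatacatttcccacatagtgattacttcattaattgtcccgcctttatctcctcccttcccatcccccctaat
Tnfrsf19: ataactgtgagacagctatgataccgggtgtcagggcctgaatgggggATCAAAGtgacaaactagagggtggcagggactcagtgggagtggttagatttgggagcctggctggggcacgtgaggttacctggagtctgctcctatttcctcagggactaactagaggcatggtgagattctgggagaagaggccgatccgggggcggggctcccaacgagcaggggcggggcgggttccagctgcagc
Epha2: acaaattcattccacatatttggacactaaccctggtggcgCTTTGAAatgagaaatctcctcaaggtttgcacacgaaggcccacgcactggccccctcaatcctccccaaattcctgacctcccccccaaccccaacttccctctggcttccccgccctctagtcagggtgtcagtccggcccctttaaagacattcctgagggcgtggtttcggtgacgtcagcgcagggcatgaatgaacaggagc
The letters CTTTGAT or CTTTGAA, on either strand, were then counted over all genes. A promoter was found for 149 of the 192 lower genes, and 17 of those (11.4%) had a match, or 9.23% of their 195 promoters. Among the 127 higher genes 102 had a promoter and 9 (8.82%) a match, or 7.25% of promoters. The shares were 6.55% of all tested genes with a promoter, 5.38% of their 13708 promoters and 7.48% of the 32851 promoters of the whole table. Dkk1, Sp8, Igdcc3 and Slc29a1 were among the other lower genes with a match.

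Across the 19 measured genes of the WNT-beta-catenin response list, 7 were 2-fold lower at 36 h and 0 were higher, 36.8% against 1.76% of all genes. Measured members, here and in the lists below, are those that passed the filter. A gene could pass it through arrays where it is high, and be below the median on the KO arrays without cytokine, as Sp5 was. The list shares of lower genes are not free of this selection, which also acted on all genes tested. The slope passed at 3 of the 19, Sp5, Nkx1-2 and Tnfrsf19. The list median was -0.25, -0.23 and -0.39 at the 3 times, so most members moved little. Axin2, the negative feedback scaffold of the pathway, read 61.0, 274.4 and 996 in WT and 43.4, 88.0 and 55.7 in KO. Its difference reached -3.71 at 36 h, with a slope that missed the threshold (-1.67 ± 0.33, limma adjusted p = 0.0774). Cdx1, a caudal homeobox gene, read 17.3, 18 and 282.1 in WT and 18.1, 25.1 and 13.5 in KO. Dkk1, a secreted WNT antagonist, parted only at 36 h (265 in WT, 32.2 in KO). Sp8 had -2.31 there. Other textbook targets were near equal at 36 h, with -0.31 at Ccnd1, -0.21 at Nkd1, -0.30 at Notum and 0.08 at Lef1, although Lef1 had -0.53 at 12 h, and 237.2 in WT against 113.8 in KO at 24 h.

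Among 11 WNT ligands measured, 3 were 2-fold lower at 36 h and 0 higher, 27.3% lower against 1.76% of all genes. Wnt8a, a canonical ligand of the posterior embryo, read 128.9, 786.9 and 2647 in WT and 71.5, 58.9 and 44.6 in KO. The slope was -2.32 ± 0.18 (limma adjusted p = 1.82e-04). Its difference of -0.75 at 12 h, after 0.19 at 0 h, kept it outside the genes that part after 12 h. Wnt5b, which acts mostly through noncanonical signalling, read 135.3, 294.1 and 552.6 in WT and 75.6, 76.6 and 62.7 in KO (slope -0.99 ± 0.20, limma adjusted p = 0.0808) and had a difference of -0.57 at 0 h. Wnt3 is the third. Wnt3a stayed near its starting level in both genotypes (157.6, 155.4 and 184.8 in WT, 157.6, 146 and 139.1 in KO).

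Receptors and other components were split. Of 31 measured, 3 were 2-fold lower and 5 higher at 36 h, where 1.76% and 1.36% of all genes were, and the slope passed at none (limma). The lower ones were Porcn (-2.72), Frzb (-4.17) and Rspo3 (-1.99). Porcn is the acyltransferase that WNT ligands need for secretion, Frzb a secreted Frizzled-related protein and Rspo3 an enhancer of WNT signalling. Porcn read 74.5, 290 and 568.1 in WT and 57.7, 70.5 and 66.3 in KO. The higher ones were the receptors Fzd7 (1.54) and Fzd8 (1.84), the repressor Tcf7l1 (1.08) and the secreted antagonists Sfrp1 (2.16) and Sfrp2 (1.20). Fzd7 stayed near its 12 h level in KO (3019, 2837 and 3236) and was lower at 36 h in WT (2504, 2165 and 1144). Ctnnb1, which encodes beta-catenin, was level at 8023 to 9216 in WT and 9027 to 9947 in KO.

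Genes of the primitive streak and nascent mesoderm were lower in KO at 36 h at 10 of 18 measured members, 55.6% against 1.76% of all genes, and higher at 1, Fgf4. The median of the list was -0.02, -0.23 and -1.83 at the 3 times. Eomes, a T-box factor of the streak and definitive endoderm, read 171.3, 494.6 and 1510 in WT and 164.3, 150.1 and 137.2 in KO (slope -1.60 ± 0.42, limma adjusted p = 0.222). Mixl1, a homeobox gene of mesendoderm, was bright only in WT at 36 h, at 545 after 8.88 and 18.1, against 16, 13.7 and 9.45 in KO. Fgf8 and Gsc, a streak growth factor and an organiser homeobox gene, had -2.97 and -2.62 at 36 h, Evx1 had -2.35 and Snai1, a driver of the epithelial to mesenchymal transition, -1.95. The slope passed at Wnt8a and at Tdgf1 of this list. Mesp1, a factor of nascent mesoderm, did not follow, at 47.2 in WT and 47.5 in KO at 36 h. The Brachyury gene was not analysed here.

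Of 18 posterior and presomitic genes, 7 (38.9%) were 2-fold lower at 36 h and 0 higher, with a slope call at Nkx1-2 and Fgf17. Over all genes 1.76% were 2-fold lower and 1.36% higher at 36 h. Some genes, such as Nkx1-2, Wnt8a and Tdgf1, are members of more than 1 list, so the counts of the lists overlap. Hoxb1, the Hox gene that opens first in the posterior embryo, read 12.9, 36.3 and 689.8 in WT and 7.95, 13.4 and 10.9 in KO (slope -2.16 ± 0.53, limma adjusted p = 0.183). Hoxb2 (-3.06) and Hoxa2 (-2.01) were the other Hox genes 2-fold lower, of 11 that passed the filter out of 22 listed, and 0 were higher. Foxa2, a pioneer factor of endoderm and axial mesoderm, read 30.7, 129.8 and 1160 in WT and 35.0, 78.8 and 41.6 in KO (slope -2.20 ± 0.38, limma adjusted p = 0.0517). It was 1 of 4 lower genes among 13 of endoderm and axial mesoderm, with Gsc, the BMP antagonist gene Chrd (-1.71) and Trh (-1.55). Lateral and extraembryonic mesoderm had 1 lower of 18, Lmo2 (-1.22, after 1.15 and 1.08). In the germline list 1 of 14 was lower, Tfap2c (-1.84), and Prdm1, which encodes BLIMP1, read 40.5 to 46.2 in WT and 58.1 to 64.5 in KO.

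**Figure D4:**
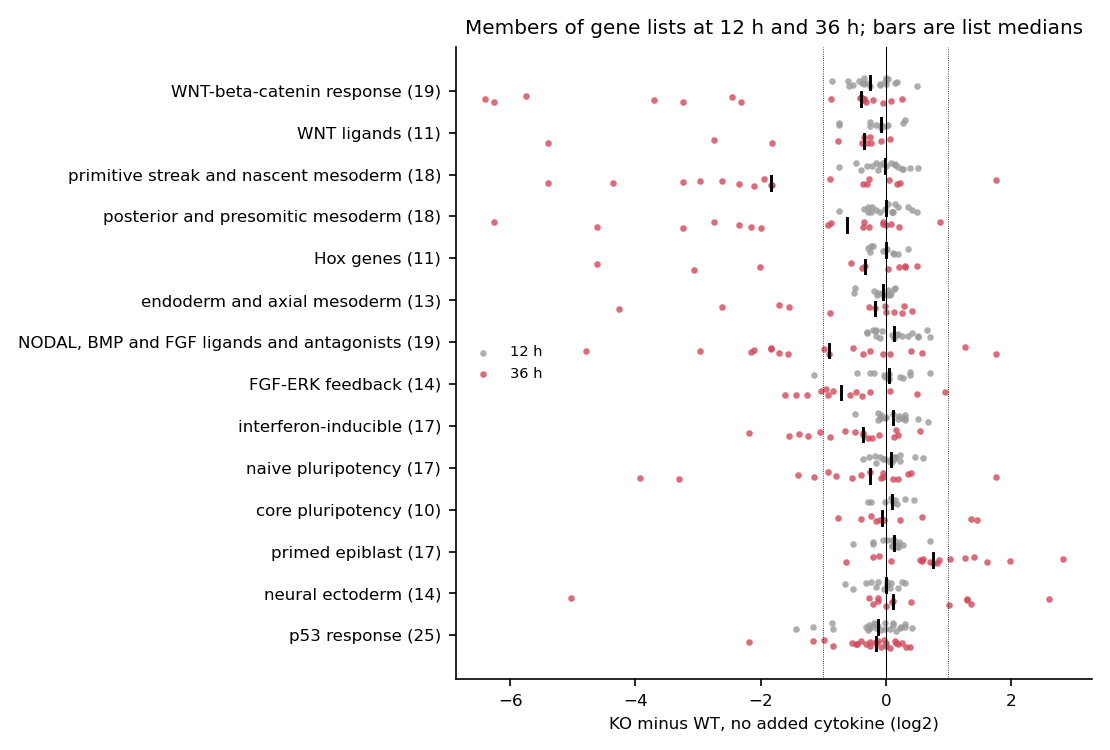
Difference between KO and WT without cytokine in log2 for the measured members of 14 gene lists, 1 point per gene, at 12 h (grey) and 36 h (red), with short bars at the list medians and dotted lines at 1 and -1. The points of most lists are tight around 0 at 12 h, the streak list has its median at -1.83 at 36 h, and the primed epiblast list has its median at 0.75.

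Secreted factors of the NODAL, BMP and FGF families were also among the genes apart at 36 h. Of 19 measured ligands and antagonists, 8 (42.1%) were 2-fold lower at 36 h and 2 higher, where 1.76% and 1.36% of all genes were. The slope passed at 3, all falling. Fst, an antagonist of activins and BMPs, read 122.8, 694.6 and 4300 in WT and 97.0, 168.9 and 138.1 in KO (slope -2.25 ± 0.28, limma adjusted p = 0.00623). Fgf17 read 61.4, 128.9 and 455.1 in WT and 85.6, 106.9 and 81.0 in KO (slope -1.29 ± 0.18, limma adjusted p = 0.013). Tdgf1, the NODAL coreceptor CRIPTO, was near level in WT (7082, 7804 and 7913) and low in KO at 36 h (5518, 5221 and 1872, slope -0.90 ± 0.15, limma adjusted p = 0.0376). Lefty2, a NODAL antagonist and target, was likewise low only in KO at 36 h, at 313 after 982.3 and 1010, against 1209 in WT. Nodal itself had -0.10, -0.40 and -0.36. The 2 higher genes were Fgf4 (1.76) and Fgf15 (1.27).

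Genes that report FGF signalling were 2-fold lower at 36 h at 4 of 14, 28.6% against 1.76% of all genes. The slope passed at Il17rd, an FGF receptor inhibitor that FGF induces. Il17rd read 948.8, 1448 and 2998 in WT and 975.5, 1269 and 975.5 in KO (slope -0.83 ± 0.14, limma adjusted p = 0.0376). Etv4 (-1.43), Spry2 (-1.04) and Egr1 (-1.26) were the others. Of 11 BMP targets only Smad7 was 2-fold lower (-1.17), and Id1 had -0.14, -0.09 and -0.36.

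The remaining falling genes were of mixed function. Rtl8c, a gene of retrotransposon origin, had the smallest p of all, at 27.7, 272.5 and 1911 in WT and 32.5, 38.1 and 42.2 in KO (slope -2.56 ± 0.19, limma adjusted p = 1.59e-04). Epha2, an ephrin receptor tyrosine kinase, read 564.2, 897.6 and 3214 in WT and 584.1, 626 and 268.7 in KO (slope -1.77 ± 0.25, limma adjusted p = 0.0147). Gbx2, a homeobox gene that marks naive cells and the posterior embryo, read 79.9, 290 and 1771 in WT and 59.3 to 92.4 in KO (slope -1.79 ± 0.29, limma adjusted p = 0.0328). Nt5e, the ectonucleotidase CD73, reached 989.1 in WT and 40.8 in KO (slope -1.96 ± 0.17, limma adjusted p = 2.58e-04). Olig1 and Olig2, a neighbouring pair of bHLH genes known for oligodendrocytes and motor neurons, both ended above their 12 h level in WT and below it in KO. Olig2 read 302.3, 797.9 and 1924 in WT and 243.9, 163.1 and 39.95 in KO (slope -2.36 ± 0.33, limma adjusted p = 0.0122). Olig1 read 699.4, 1710 and 3616 in WT and 592.2, 491.1 and 154.3 in KO (slope -2.09 ± 0.25, limma adjusted p = 0.00549). Slopes from -1.51 to -0.72 were called at Igdcc3, Mogat2, Meis2, Tex15, Lhpp, Slc29a1, Usp3 and Oat.

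The 127 higher genes had smaller differences, at most 3.52, with 12 over 4-fold and 0 over 16-fold. Of these, 34 moved by at least 1 unit in WT alone, 29 in KO alone, 2 moved apart, 6 moved the same way and 56 moved that far in neither. The median change from 12 to 36 h was -0.66 in WT and 0.54 in KO. The slope passed at Dcn and Myb of this class and at Irs4 outside it. Myb, a transcription factor of progenitor cells, read 689.8, 505 and 103.3 in WT and 891.4, 1031 and 831.7 in KO (slope 1.23 ± 0.20, limma adjusted p = 0.0319). Dcn, the matrix proteoglycan decorin, read 159.8, 82.7 and 49.2 in WT and 142, 235.6 and 321.8 in KO (slope 1.26 ± 0.16, limma adjusted p = 0.00736). Dcn is also 1 of the fibroblast markers, of which Thy1 was higher too (1.19).

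Markers of the primed epiblast were higher in KO at 36 h at 6 of 17 and lower at 0, where 1.36% of all genes were higher, with a list median of 0.13, 0.18 and 0.75 and no slope call. Otx2, a homeobox factor of the anterior epiblast, read 568.1, 430.5 and 116.2 in WT and 657.1, 704.3 and 916.5 in KO (slope 1.31 ± 0.35, limma adjusted p = 0.234). Foxd3 (1.99), Sall2 (1.62), Zic5 (1.41), Fgf15 (1.27) and Dnmt3a (1.02) were the others. Of 10 core pluripotency genes, Sox2 (1.36) and Utf1 (1.45) were higher and 0 lower, while Nanog had 0.45, -1.09 and -0.77. Of 14 neural ectoderm genes 5 were higher, 1 lower. Pax6, an early neural factor, read 69.6, 79.3 and 25.1 in WT and 73.0, 167.7 and 235.6 in KO (slope 1.27 ± 0.24, limma adjusted p = 0.0627). Its other probe sets, which read at most 32.45, had -0.30 to 0.85 at 36 h. Sox1 was higher at 36 h than at 12 h in both genotypes, at 238.9 after 25.3 in WT and at 588.1 after 27.3 in KO. The lower neural gene was Olig2. The largest difference of the higher genes was at Foxd4, a forkhead gene, with 32.0, 37.8 and 16.8 in WT and 49.9, 91.8 and 369.6 in KO. Others were Slc35d3 (2.90), Shisa2 (2.88), an endoplasmic reticulum protein that restrains WNT and FGF receptors, Sfrp1 and Nav2 (2.04). The other probe sets of Nav2, which read at most 93.7, had -0.37 to 0.37 at 36 h.

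The slope calls depended on single arrays too. Without KO at 36 h 2 genes were called and without WT at 36 h 4. Without KO at 12 h 20 were called, 10 rising and 10 falling, and 7 of them were among the 25. Without WT at 12 h 35 were called, 12 of them among the 25. Without WT at 24 h 43 were called, and without the array titled WT with BMP4 at 12 h 48 (12 rising, 36 falling), among them all 25. Without the 3 arrays of Gapdh ratio over 2, which include WT at 36 h and KO at 24 h, 7 were called, 6 of them among the 25. A linear course is also only 1 shape. A model with a step at 36 h, against 12 and 24 h, called 35 genes (limma). The KO minus WT difference rose at that step for 14 and fell for 21, and 7 of the 25 slope genes were among them.

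Most 2-fold differences on the 12 h arrays did not last at that size. Of 85 genes 2-fold lower in KO at 12 h, 15 were so at 24 h too and 5 at 36 h. Over all 13255 genes, 93 were 2-fold lower at 24 h, and 233 (1.76%) were lower and 180 (1.36%) higher at 36 h. The shares among the 85 were thus above those of all genes. By 36 h, 61 of the 85 lay above 0 and 7 were 2-fold higher, and their median moved from -0.45 at 24 h to 0.22 at 36 h, after -0.17 at 0 h. Of 15 genes 2-fold higher at 12 h, 4 were so at 36 h. Among list members, Uhrf1, a partner of the maintenance DNA methyltransferase, went from -1.06 and -1.35 to 1.36. Ndrg1, a stress and hypoxia gene, was lower at 12 and 36 h (-1.05 and -3.30) and near equal at 24 h (-0.12).

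The genes apart at 36 h were then read on arrays that the rule at 36 h had not used. These arrays did take part in the normalization, the choice of probe sets and the filter. In the cells at 0 h, 0 of the 192 lower genes were 2-fold lower, where only 0.0981% of all genes were. Their median was 0.00, as it was over all genes. With BMP4, 61 (31.8%), 91 (47.4%) and 131 (68.2%) of the 192 were 2-fold lower in KO at 12, 24 and 36 h, against 0.92%, 1.36% and 3.58% of all genes. Of the 127 higher genes 31 (24.4%), 58 (45.7%) and 76 (59.8%) were 2-fold higher, against 0.694%, 1.24% and 4.03%. The 12 h pair holds the array with the doubtful label, and the 24 and 36 h pairs do not. The BMP4 arrays come from the same lines as the arrays without cytokine, so genotype and line cannot be told apart there either.

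**Figure D5:**
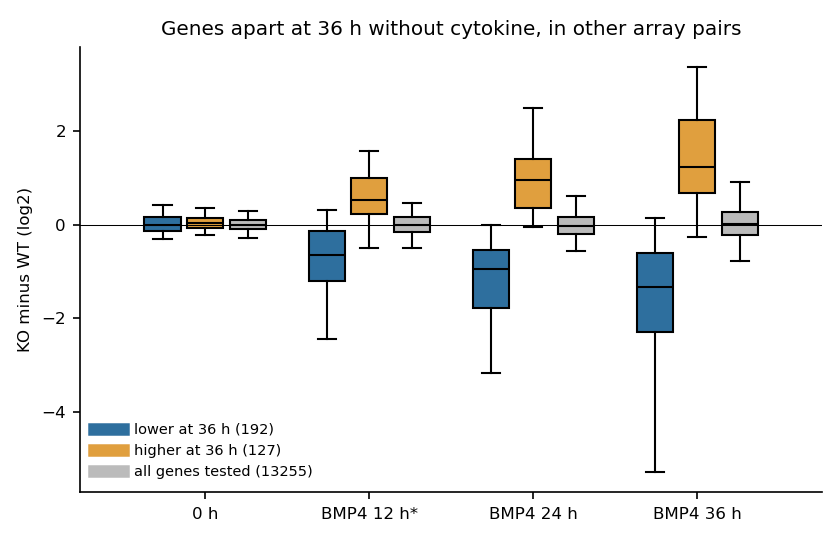
Difference between KO and WT in log2 for the 192 lower genes, the 127 higher genes and all 13255 tested. The pairs are those at 0 h and with BMP4, which the rule at 36 h did not use. Boxes span the quartiles with a line at the median, whiskers reach from the 5th to the 95th percentile, and the asterisk marks the pair with the doubtful label. The medians of the lower genes run from 0.00 at 0 h to -1.33 with BMP4 at 36 h.

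Most of the strongest genes were lower in KO with BMP4 too. At 36 h Sp5 read 2385 in WT and 15.9 in KO with BMP4 (-6.14), Nkx1-2 read 1226 and 18.8 (-5.06), and Fst read 3717 and 78.3 (-5.32). In the 6 KO arrays that hold WNT3A by at least 1 label field, Sp5 read 487.8 to 5833, where KO without cytokine read 24.8 to 27.3. Some did not differ with BMP4. Of the 53 genes over 4-fold lower without cytokine, 43 were 2-fold lower with BMP4 at 36 h and 7 (13.2%) had a difference above -0.5: Olig2, Olig1, Tgfbr3, Ada, Pkdcc, Mab21l2 and Tdgf1, a split drawn after the values were seen. Olig1 read 3616 against 154.3 in KO when no cytokine was added, and 2150 against 2195 with BMP4. Tdgf1 read 7913 and 1872 without cytokine, and 6562 and 7332 with BMP4. Tgfbr3 was low in both genotypes with BMP4 (57.3 and 59.7), after 749.6 and 77.2 without. Foxa2 belongs near them, since WT with BMP4 held it at 39.4 and KO at 19.8 (-0.61). Among the higher genes Foxd4, at 0.31 with BMP4, was low in both genotypes there (6.15 and 11.5).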

How the data were processed

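Total RNA of 23 cultures was amplified as cDNA, labelled with biotin and read on mouse 430 2.0 arrays, per the labels' protocols. The authors deposited 1 intensity value per probe set and array on a linear scale, by a summary method not given in the sources used here. Each value falls on a grid of step 0.01 in log2, and 2.93% stand at the floor of 1. The members, gene lists and limits were chosen with earlier results of these data known.

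Of 45101 probe sets, 34945 name 1 gene, 932 several, 9160 none and 64 are controls, by the platform annotation. A gene is its single-gene probe set with the highest mean. Genes above the array median on at least 3 of 23 arrays were kept (13255 of 18193). Since upper quartiles spread by 0.348 log2, over the limit of 0.2, log2(intensity + 16) was quantile normalized. limma 3.58.1 in R 4.3.3 fitted 21 arrays in 7 groups by title. The mean difference came from a model with time as an additive block (12 residual degrees of freedom), and the slope from one with a level and slope per group and a common 24 h term (6). Both used moderated variances with a trend and Benjamini-Hochberg adjustment over all genes, with a threshold of 0.05. Times pair the genotypes by design. The number of arrays limits the precision. On simulated data for 13255 genes the mean model found 87% of changes of 1 log2 unit and 98% of changes of 2, with 11 false calls, and the slope model 66% and 92%, with 10. The simulated spread was normal and independent between arrays. Apart from the planted changes, every group had the same time course and no array was of odd quality or label. The real arrays differ in this, so these shares describe the simulation only. Gene names rest on the rule that the steady and late genes with the largest differences and the members of 31 gene lists are named, and models named by clone or locus numbers are skipped when ranking. The closing section gives the alternatives for offset, scaling, filter, probe sets, arrays and limits. Promoters were taken from RefSeq. Figures were drawn with matplotlib 3.10.9.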

Additional observations from a re-analysis of the deposited data

Results flagged for a closer look

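For 25 genes the KO minus WT difference without cytokine differed between times, by the slope test (limma, adjusted p under 0.05, 6 residual degrees of freedom). The 22 falling slopes, in log2 per 12 h, ran from -3.21 at Sp5 to -0.72 at Oat. WNT targets and genes of the posterior embryo had slopes of -2.96 at Nkx1-2, -2.65 at Tnfrsf19, -2.32 at Wnt8a and -1.79 at Gbx2. Genes of secreted factors and their surface partners had slopes of -2.25 at Fst, -1.77 at Epha2, -1.29 at Fgf17, -0.90 at Tdgf1 and -0.83 at Il17rd. The transcription factor genes Olig2, Olig1 and Meis2 had -2.36, -2.09 and -1.31. Other falling genes were Rtl8c (-2.56), Nt5e (-1.96), Igdcc3 (-1.51), Mogat2 (-1.46), Tex15 (-1.23), Lhpp (-0.88), Slc29a1 (-0.79), Usp3 (-0.77) and Oat (-0.72). The 3 rising slopes were 1.26 at Dcn, 1.23 at Myb and 1.16 at Irs4. Of 20 alternatives, Wnt8a and Rtl8c kept their slope call in 19, Nkx1-2 in 17 and Sp5 in 15, but Meis2, Tex15 and Usp3 in 10, Oat in 9 and Il17rd in 8.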

How the results depend on the processing

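No gene value reversed: of 837 gene values recomputed, 494 kept their call and 343 no longer passed. Of 26 alternatives, the mean call held in 15 for Cdkn1a, 7 for G2e3, and 6 for Scap and for Atp8b2. Of the counts, the 13 mean calls became 7 with no filter, 5 with array weights, 6 with an added 2-fold limit, 2 with no replicate block (time left out of the model), 155 as the 24 h difference of the linear model, and 0 in a fit of only the 6 arrays compared (1353 at an unadjusted p under 0.05). They became 0 without the 6 KO arrays of conflicting labels, 1 without the arrays of Gapdh ratio over 2, 3 without the 6 KO arrays and the array titled WT with BMP4 at 12 h, and 3 in arrays without cytokine or with BMP4 less that array. Leaving out 1 array of those compared, or 1 time, gave 0 to 67. The 25 slope calls became 39 with an offset of 1, 38 with a filter at the 60th percentile, 47 with array weights, 7 without the arrays of Gapdh ratio over 2, 48 without the array titled WT with BMP4 at 12 h and 46 without it and the 6 KO arrays, with 2 to 43 when 1 array was left out. The 3 genes 2-fold apart at all times became 8 with an offset of 1, and 1 with an offset of 64 or a limit of 1.5. The 319 genes apart at 36 h became 136 with a limit of 1.5 and 204 with one of 0.25 at 12 h, and the 131 of them lower with BMP4 became 84 and 85. Values as deposited and median centring kept the counts within 1.5 times, but the genes 2-fold apart at all times became 2, without Cdkn1a. The mean calls were 11 and 10, the slope calls 29 and 32, and the genes apart at 36 h 337 and 332. The alternatives with the array titled WT with BMP4 at 12 h left out were chosen after the data were seen. The causes of these changes were not tested.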

Other observations

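Besides the lists described above, interferon-inducible genes were among those apart at 36 h. Of 17 measured, 5 were 2-fold lower in KO and 0 higher, where 1.76% and 1.36% of all genes were, with a list median of 0.11, -0.11 and -0.37 at 12, 24 and 36 h and no slope call (limma). Irgm1, an immunity-related GTPase gene, had -2.19 at 36 h, at 195.4 in WT and 27.9 in KO, Gbp2 had -1.54, and Ifitm1, which is also a gene of the nascent mesoderm, had -1.38 (2120 in WT, 786.9 in KO). Of 14 immediate early genes, 4 were 2-fold lower at 36 h, led by Fos at -1.73 (227.5 in WT, 52.7 in KO). At 0 h Fos and Egr1 were the other way round, with differences of 3.64 and 1.63 (Fos 44.0 in WT and 670.9 in KO, Egr1 491.1 and 1641).

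Of 21 imprinted genes, 3 were 2-fold lower at 36 h, 14.3% against 1.76% of all genes. Among them were Plagl1, a zinc finger regulator of growth, at 568.1 in WT and 87.4 in KO (slope -1.12 ± 0.20, limma adjusted p = 0.0541), and Cdkn1c (-1.07). Retinoic acid genes had 2 higher of 12, Crabp2 (1.53) and Rarb (1.32), and 1 lower, Dhrs3 (-1.93), where 1.36% of all genes were higher. Cdh1, which encodes E-cadherin, was level, with 0.04, 0.28 and 0.04.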
